A study of Mus musculus with 9 samples.

Results

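The Toll-like, IL-1 and NF-kB pathway genes are 49 mouse genes chosen by symbol for their part in sensing microbial products such as those in mycobacterial adjuvant, and they were followed here in bone marrow progenitors. Of the 49 symbols, 48 are among the 14940 genes of the deposited table, and 47 passed the filter on low values and were tested with the other genes, 13018 in all. Nfkb1 is not among the symbols of the table and was not analysed here, and Relb, present at low values, did not pass the filter.

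The RNA came from LSK cells, named for a sort that keeps marrow cells without lineage markers and with both Sca1 and cKit, a gate that takes in stem cells and early progenitors of several fates. C57BL/6 mice were used in every group. The 3 naive mice were not immunized. The 3 EAE mice were taken 3 days after they had received the MOG35-55 peptide of myelin together with complete Freund's adjuvant, an oil emulsion that contains mycobacteria, which starts experimental autoimmune encephalomyelitis (EAE). The 3 treated EAE mice were immunized in the same way and given SR59230A, an antagonist of the beta 3 adrenergic receptor, over the 3 days. The study has no group given adjuvant alone, no vehicle is named for the untreated EAE mice, and age and sex are not stated in the labels. The labels describe the 3 samples of a group as separate mice.

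Toll-like receptors bind microbial lipids and nucleic acids, and, like the IL-1 receptor, they recruit the adaptor MYD88 and kinases of the IRAK family. These activate the TAK1 kinase and the IKK complex, which marks the inhibitory IkB proteins for destruction and so frees NF-kB dimers to enter the nucleus. NF-kB in turn induces its own inhibitors, and in bone marrow the pathway is known to act in progenitors as well as in mature myeloid cells, where it favours myeloid output.

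In EAE against naive mice 10 of the 47 tested members rose and 2 fell at an adjusted p under 0.05 (25.5% of the members, against 14.2% of all genes tested, limma-trend with Benjamini-Hochberg adjustment over all genes). Higher calls made up 9.13% and lower calls 5.1% of all genes tested. The members' median log2 difference was 0.13, against -0.003 over all genes tested. In treated EAE against naive mice 12 members rose and 1 fell (27.7% of the members, against 14.8% of all genes tested, of which 10.2% were higher and 4.61% lower), with a median log2 difference of 0.15 against 0.01. In treated EAE against EAE no member passed the threshold, and neither did any gene but 1 in the whole table (0.00768%), the erythroid carbonic anhydrase Car1. The first 2 comparisons use the same naive mice, and their values are given side by side below without being counted as separate support. The members and the further lists were chosen with earlier results of these data known, so that their shares of calls are a description.

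**Figure D1:**
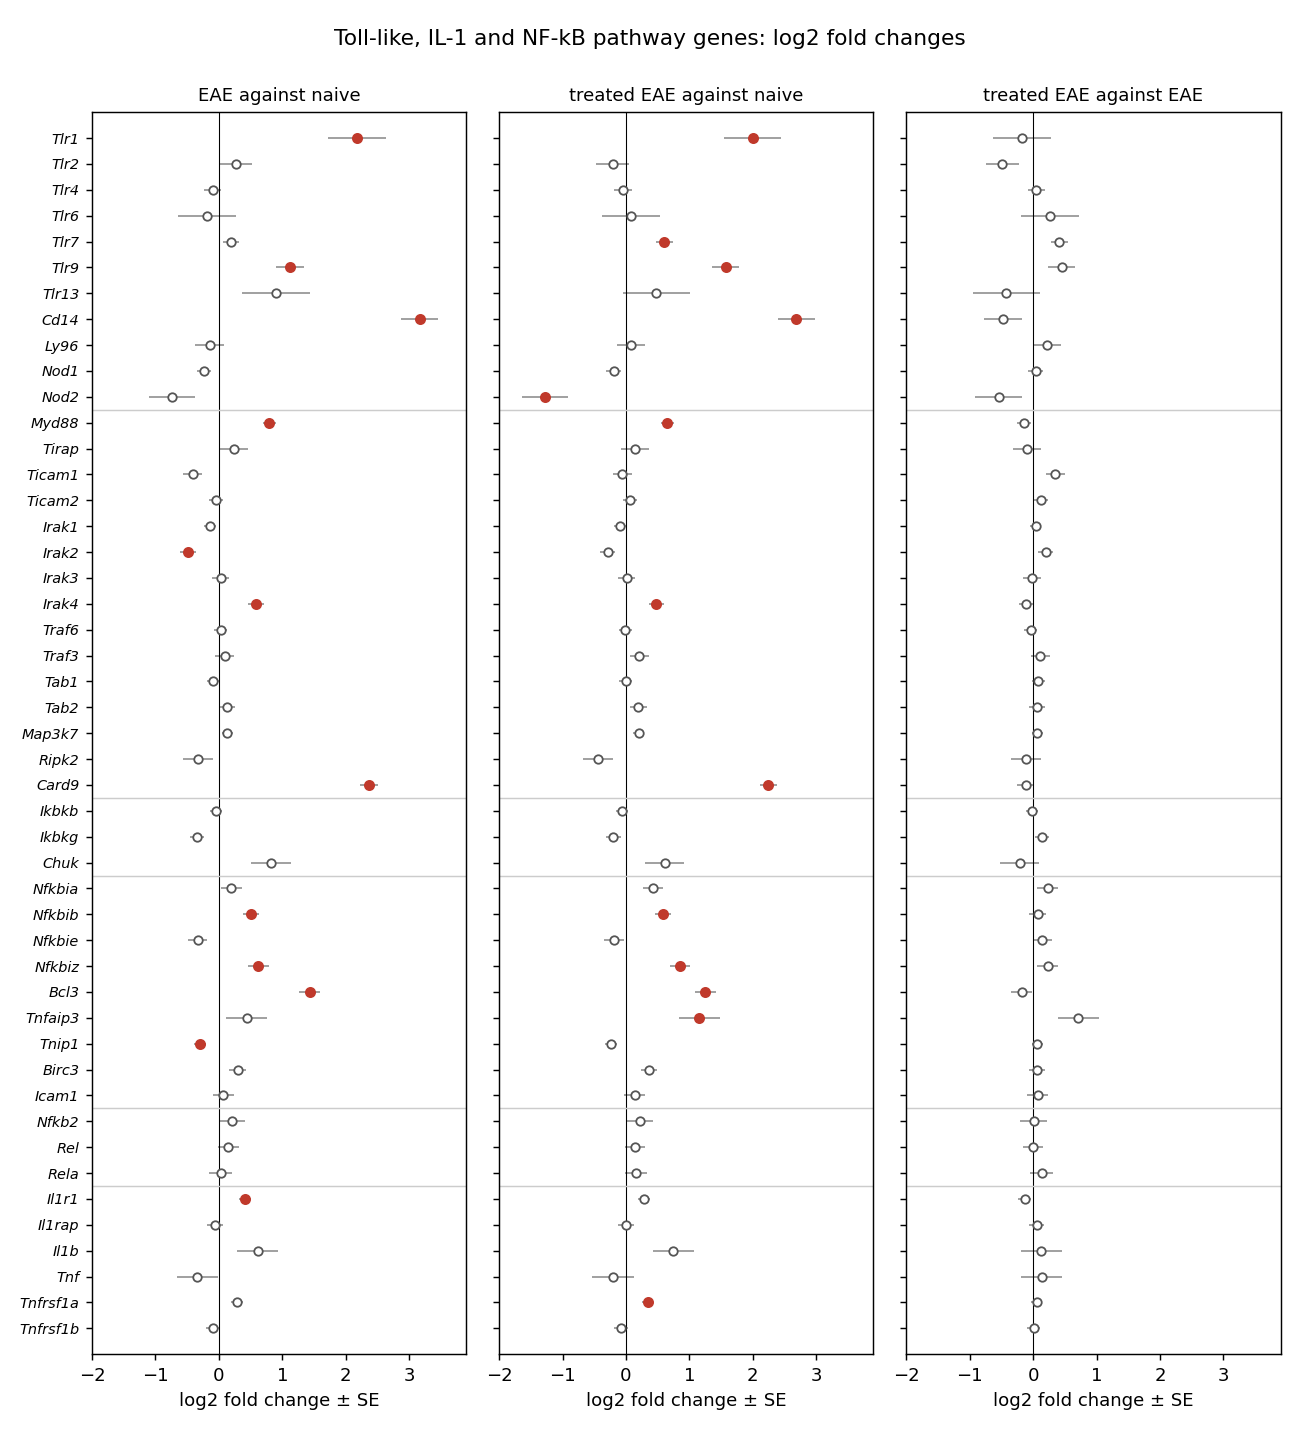
Log2 fold change with its standard error (x axis) for the 47 tested members (y axis, grouped by role), for EAE against naive, treated EAE against naive and treated EAE against EAE. Filled red points passed an adjusted p of 0.05: 12 members in the first panel, 13 in the second and none in the third.

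The member counts against naive mice fell furthest under 2 processing choices. Under the others they were 10 to 15 in EAE and 9 to 19 in treated EAE. With the share of chemosensory receptor genes per library as a further term, 2 members were called in EAE (Card9, and Tnfaip3 as lower) and 1 in treated EAE (Card9). Over all 13018 genes tested, 112 and 18 were called with it. The 12 members called in EAE all kept their direction with this term and 10 had a larger log2 difference, Cd14 at 3.53 ± 0.70 (adjusted p = 0.0510), Myd88 at 1.11 ± 0.23 (adjusted p = 0.0516) and Tlr1 at 3.07 ± 1.01 (adjusted p = 0.200) among them, but not Il1r1 and Nfkbiz. Of the 13 in treated EAE 11 kept their direction, all but Nfkbiz and Tnfaip3. The standard errors of these members were larger by a median of 2.32 times in EAE and 3.50 times in treated EAE. That share was 0.151% to 0.181% in naive, 0.107% to 0.121% in EAE and 0.0807% to 0.1% in treated libraries, so that it separates the groups, and the term and the group cannot be told apart. With limma's prior variance held constant over expression levels, 6 members were called in each comparison, all of them higher: Card9, Cd14, Myd88, Bcl3, Tlr1 and Tlr9. Over all 13018 genes tested, 778 (EAE) and 864 (treated EAE) were called in that setting.

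The level of a gene is given below as a scaled value, which is the deposited number divided by a factor per library. These are adjusted values and not read counts, and whether they are corrected for gene length is not stated. They allow a gene to be compared between libraries but not with another gene, and a sum over markers leans on those with the largest values. Sums over the table lay between 8641735 and 10387955 per library, and the sequencing depth is unknown. The sort genes Kit and Ly6a (the gene of Sca1) were at 4814 or more and at 1403 or more in every library. With no unsorted cells to compare, these levels do not measure how well the sort worked. Kit was lower (-0.43 ± 0.09, SE, log2 scale) and Ly6a higher (0.46 ± 0.12) in EAE than in naive mice. Summed levels of myeloid progenitor and monocyte markers were also higher after immunization. The summed level of 9 granulocyte-monocyte progenitor markers was 2901 to 3541 in naive, 14949 to 22129 in EAE and 15111 to 16181 in treated libraries, with 8 of the 9 called higher in EAE against naive. The summed level of 8 monocyte and macrophage markers (of 10 listed) was 1062 to 1528, 4603 to 5442 and 4626 to 5230. Among them Ccr2 rose (4.13 on the log2 scale) and F13a1 rose (3.59). Of the 7 tested, 3 were called higher and 0 lower in EAE against naive, and 2 had negative log2 differences, down to -1.91. The macrophage gene C1qb was too low to be tested. The summed level of 10 mature neutrophil markers was 3120 to 7144, 3977 to 16927 and 8034 to 17170. Of these 10, 2 were called higher and 1 lower in EAE against naive, and 4 higher and 1 lower in treated EAE against naive. The summed level of 7 stem cell markers (of 8 listed) was 7053 to 7810 in naive, 3944 to 4421 in EAE and 4305 to 4640 in treated libraries, with 5 of the 7 called lower in EAE against naive. The summed level of 6 erythroid markers was 8497 to 9481 in naive, 3343 to 3652 in EAE and 4300.01 to 4693 in treated libraries. Of the 5 tested, 2 were called lower and 0 higher in EAE against naive. In treated EAE against naive 1 was called lower and 1 higher, and 4 of the 5 had positive log2 differences (median 0.48), against the direction of the sum. For 7 natural killer cell markers the sum was 605 to 684, 870 to 1028 and 896 to 1005. Of 6 tested basophil and mast cell markers 3 were called higher in EAE, while the summed level of all 8 listed overlapped between the groups. No marker of these lists was at 0 in all 3 libraries of a group. EAE library 2 stood apart on the third principal component (13.2% of the variance), at -36.0 where the other libraries were between -5.59 and 22.5. Without it 13 members were called in EAE against naive mice, and 1870 of all 12911 genes tested. The 13 members held 11 of the 12 called with it, all but Nfkbiz. In bulk RNA, a change in the share of a cell type and a change in RNA per cell cannot be told apart. The part of these cells in the results below was not tested.

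Among the receptors that meet microbial products, 3 of 11 rose in EAE against naive mice and none fell, against 9.13% and 5.1% of all genes tested. In treated EAE against naive mice 4 rose and 1 fell, against 10.2% and 4.61% of all genes tested. The 3 that rose in both were Cd14, the co-receptor that hands lipopolysaccharide and lipopeptides to Toll-like receptors, Tlr1, which pairs with TLR2 on triacylated lipopeptides such as those of mycobacteria, and Tlr9, the endosomal receptor for unmethylated CpG DNA. Cd14 was at 14.1, 11.3 and 12.1 in naive, 77.1, 143 and 149 in EAE and 81.8, 67.8 and 111 in treated libraries (always libraries 1, 2 and 3 in that order). Every immunized library was more than 4 times the highest naive one, and the EAE and treated libraries overlapped. Cd14 rose 8.96-fold in EAE (log2 3.16 ± 0.30, SE, adjusted p = 7.35e-05) and 6.44-fold in treated EAE (log2 2.69 ± 0.30, adjusted p = 0.000258) against naive mice.

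Tlr1 was barely measured in naive mice, at 3.02, 1.88 and 3.73, and was at 13.5, 18.3 and 16.6 in EAE and 13.1, 12.1 and 17.7 in treated libraries. The naive libraries lay below all 6 immunized ones. The log2 difference was 2.18 ± 0.45 in EAE (adjusted p = 0.00903) and 2.0 ± 0.45 in treated EAE (adjusted p = 0.0136), and at so low a level the added 1 makes it smaller than the ratio of the means. Tlr1 and its neighbour Tlr6, which also pairs with TLR2, are close copies of each other, so that reads can be split between them in counting, and both values are uncertain to that extent. Tlr6 itself was at 12.1, 8.47 and 19.6 in naive, 16.1, 7.12 and 11.4 in EAE and 12.1, 15.2 and 13.2 in treated libraries, with overlap of all 3 groups. Their shared partner Tlr2 was at 49.3, 33.9 and 56.9 in naive, 59.2, 53.9 and 52.8 in EAE and 44.5, 37.5 and 36.4 in treated libraries and passed in no comparison, with all treated libraries below all EAE ones (log2 -0.48 ± 0.26).

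Tlr9 separated the 3 groups: it was at 45.3, 36.7 and 57.8 in naive, 107, 83.3 and 114 in EAE and 128, 139.7 and 146 in treated libraries. It rose 2.17-fold in EAE (log2 1.12 ± 0.22, adjusted p = 0.00639) and 2.97-fold in treated EAE against naive mice (log2 1.57 ± 0.22, adjusted p = 0.000958), while the difference between treated EAE and EAE did not pass (log2 0.45 ± 0.22, unadjusted p = 0.0612). Tlr7, the endosomal receptor for single-stranded RNA, was at 452, 481 and 482 in naive, 546, 456 and 626 in EAE and 642, 747 and 770.0 in treated libraries. The EAE libraries overlapped the naive ones and all treated libraries lay above both groups. Tlr7 rose in treated EAE against naive mice (log2 0.61 ± 0.13, adjusted p = 0.0107) and was not called in EAE against naive (0.19 ± 0.13, adjusted p = 0.362). Its difference of treated EAE from EAE was 0.41 with a 95% interval of 0.13 to 0.70, the lowest unadjusted p of any member in that comparison (0.00807), and was not significant after adjustment (adjusted p = 0.998).

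Nod2, the cytosolic receptor for muramyl dipeptide of the bacterial cell wall, was at 34.2, 34.8 and 29.9 in naive, 20.6, 16.3 and 21.7 in EAE and 20.2, 12.1 and 8.83 in treated libraries. All immunized libraries were below the naive ones. Nod2 fell past the threshold in treated EAE (log2 -1.28 ± 0.37, adjusted p = 0.0381) and not in EAE (-0.74 ± 0.37, adjusted p = 0.211), and the call was lost without naive library 1, treated library 2 or treated library 3 (adjusted p = 0.0773, 0.0699 and 0.0647). Nod1, which binds another peptidoglycan fragment, was at 297, 271 and 287 in naive and 238, 231 and 259.9 in EAE libraries without passing (log2 -0.23 ± 0.12). Tlr4 and its co-receptor Ly96, which bind lipopolysaccharide with CD14, had log2 differences of -0.10 and -0.14 in EAE against naive, and Tlr13, a receptor for bacterial ribosomal RNA, had 0.90 ± 0.53. None of the 3 passed in any comparison.

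**Figure D2:**
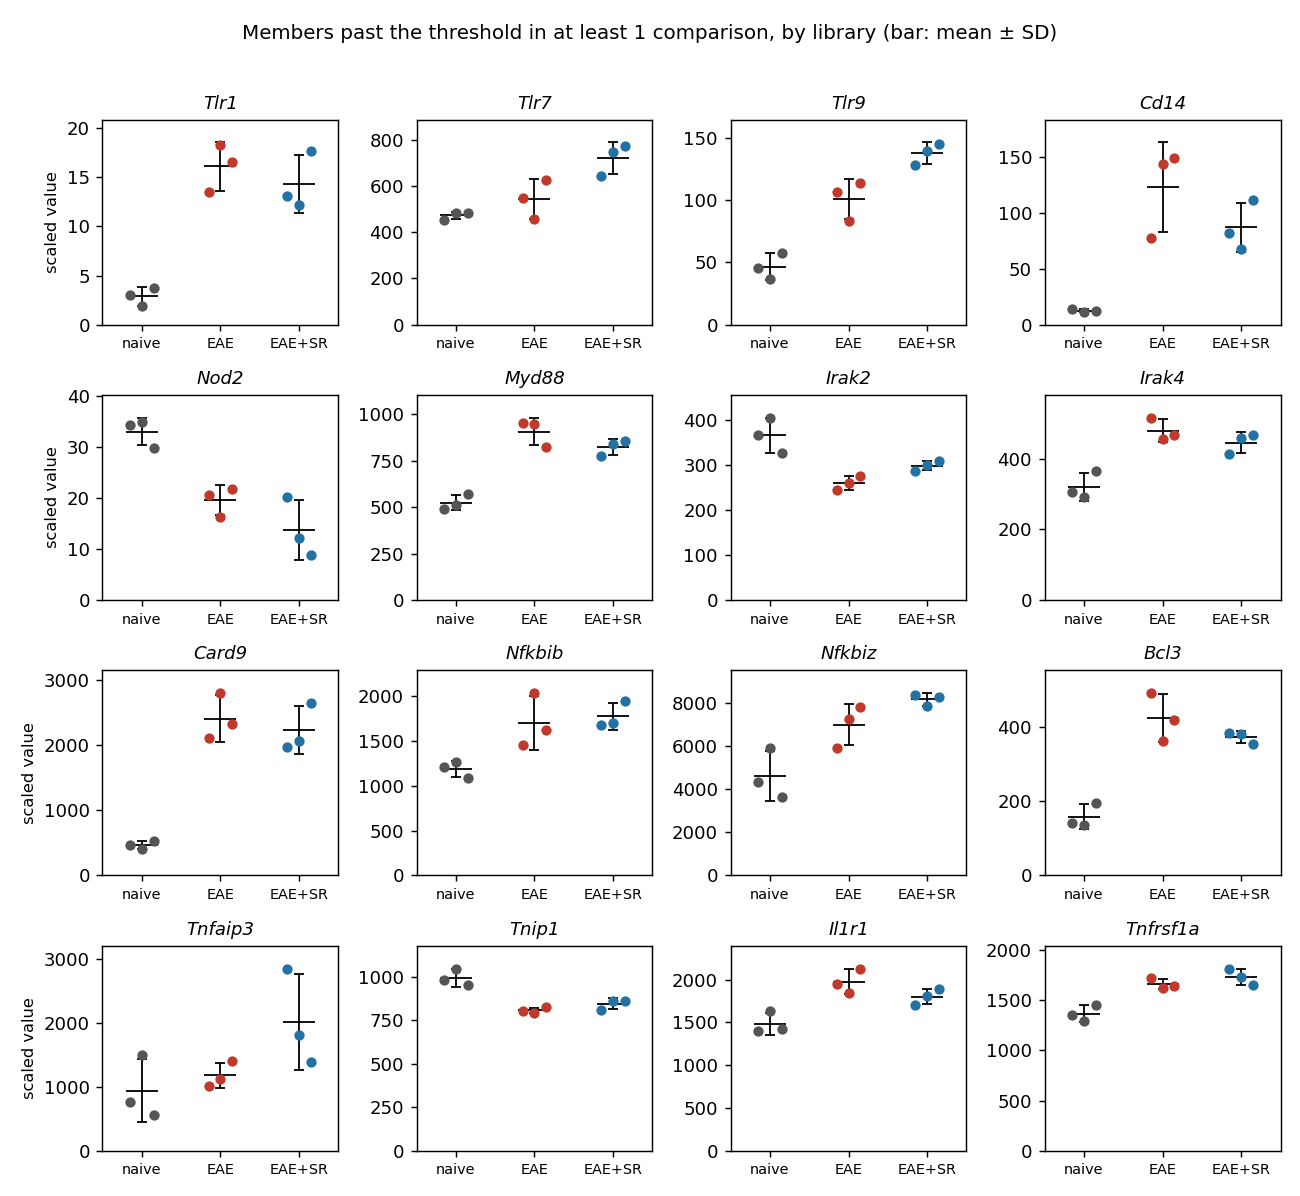
Scaled values (y axis, each panel on its own scale from 0) of the 16 members that passed in at least 1 comparison, by library, for naive, EAE and SR59230A-treated EAE mice (x axis, 3 libraries each, with mean and SD). Cd14, Tlr1, Card9, Myd88 and Bcl3 are higher in every immunized library than in any naive one, Irak2, Tnip1 and Nod2 are lower, and Tnfaip3 overlaps between groups.

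Of the 6 cytokine and cytokine receptor genes, 1 rose in each comparison with naive mice, against 9.13% (EAE) and 10.2% (treated EAE) of all genes tested. Il1r1, the signalling receptor of IL-1, was at 1403, 1633 and 1422 in naive, 1948, 1843 and 2131 in EAE and 1709, 1814 and 1889 in treated libraries. All immunized libraries were above the naive ones, and Il1r1 passed in EAE (log2 0.41 ± 0.10, adjusted p = 0.0185) but missed the threshold in treated EAE (log2 0.28 ± 0.10, adjusted p = 0.0784). Tnfrsf1a, the main signalling receptor of TNF, was at 1353, 1291 and 1451 in naive, 1715, 1623 and 1641 in EAE and 1813, 1725 and 1648 in treated libraries. It too lay above the naive range in all immunized libraries, and it passed in treated EAE (log2 0.34 ± 0.09, adjusted p = 0.0258, just above 0.05 without naive library 1) and narrowly missed in EAE (log2 0.28 ± 0.09, adjusted p = 0.0555), where it passed under 9 alternatives, 6 of them leaving out 1 library (naive 3, EAE 2, EAE 3 or any treated one). Il1r1 passed in treated EAE under 5 alternatives, among them without naive library 2, EAE library 2 or EAE library 3. Between treated EAE and EAE mice the log2 difference was -0.13 ± 0.10 for Il1r1 and 0.06 ± 0.09 for Tnfrsf1a, so that a call in 1 of the comparisons alone does not separate the immunized groups.

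Neither ligand passed in any comparison. Il1b, one of the ligands of IL-1 receptors, was at 22.2, 30.1 and 28 in naive, 44, 55.9 and 28 in EAE and 33.3, 50.6 and 54.1 in treated libraries, and its log2 difference of 0.61 ± 0.33 in EAE did not pass (adjusted p = 0.241). Tnf was at 55.4, 78.1 and 36.4 in naive, 33.2, 54.9 and 42.4 in EAE and 60.6, 42.5 and 39.7 in treated libraries, with the groups overlapping. Il1rap, the chain shared by IL-1 family receptors, and Tnfrsf1b, the other TNF receptor, had log2 differences of -0.06 and -0.09 in EAE against naive and passed in no comparison.

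Among the 15 adaptors and proximal kinases, 3 rose and 1 fell in EAE against naive mice, against 9.13% and 5.1% of all genes tested. The same 3 rose in treated EAE against naive mice, against 10.2% of all genes tested. Card9, the adaptor that carries signals from SYK-coupled C-type lectin receptors to NF-kB, had the largest rise of the group. It was at 462, 414 and 535 in naive, 2109, 2804 and 2323 in EAE and 1980.3, 2064 and 2659.7 in treated libraries. The lowest immunized library was more than 3 times the highest naive one, and the 2 immunized groups overlapped. Card9 rose 5.15-fold in EAE (log2 2.37 ± 0.14, adjusted p = 1.55e-06) and 4.75-fold in treated EAE (log2 2.25 ± 0.14, adjusted p = 2.69e-06), and it was the only member to pass under every processing alternative in both comparisons.

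Myd88, the adaptor shared by most Toll-like receptors and the IL-1 receptor, was at 489, 511 and 570.0 in naive, 949.9, 947 and 820.0 in EAE and 772, 836 and 855 in treated libraries. All 6 immunized libraries lay above the naive range. Myd88 rose 1.73-fold in EAE (log2 0.79 ± 0.11, adjusted p = 0.000754) and 1.57-fold in treated EAE (log2 0.65 ± 0.10, adjusted p = 0.0024). Irak4, the first kinase recruited by MYD88, was at 305, 291 and 365 in naive, 516, 456 and 466 in EAE and 412, 458 and 467 in treated libraries. It rose in EAE (log2 0.59 ± 0.12, adjusted p = 0.00893) and in treated EAE (log2 0.48 ± 0.12, adjusted p = 0.0224), the second of these lost without naive library 1 or treated library 2 (adjusted p = 0.0539 and 0.0504). Irak2, a later member of the same kinase family, went the other way, at 368, 404 and 326 in naive, 244, 260.2 and 276 in EAE and 287, 299.6 and 308 in treated libraries. The 3 groups did not overlap, with the treated libraries between the others, and Irak2 fell in EAE against naive mice (log2 -0.49 ± 0.12, adjusted p = 0.0221) without passing in treated EAE (log2 -0.29 ± 0.12, adjusted p = 0.133).

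The other 11 adaptors and kinases passed in no comparison. Irak1 and Irak3, the remaining IRAK family members, had log2 differences of -0.14 and 0.03 in EAE against naive mice. Ticam1, the adaptor TRIF of TLR3 and TLR4, was at 170.2, 199.6 and 178 in naive, 149, 144 and 120.1 in EAE and 177, 187 and 162 in treated libraries. The EAE libraries lay below both other groups, but neither difference passed (log2 -0.41 ± 0.15, adjusted p = 0.0964 against naive, and 0.35 ± 0.15 for treated EAE against EAE, unadjusted p = 0.0393, adjusted p = 0.998). The bridging adaptors Tirap (0.24) and Ticam2 (-0.05), the ubiquitin ligases Traf6 (0.03) and Traf3 (0.10), and Map3k7, which encodes TAK1 (0.13), with its partners Tab1 (-0.09) and Tab2 (0.13), showed small log2 differences in EAE against naive mice. Ripk2, the kinase downstream of NOD1 and NOD2, was at 74.5, 93.2 and 91.4 in naive, 80.7, 71.2 and 54.9 in EAE and 49.5, 71.9 and 70.6 in treated libraries (log2 -0.33 ± 0.24 and -0.44 ± 0.24), without passing.

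None of the 3 genes of the IKK complex and none of the 3 tested NF-kB subunits passed in any comparison. Ikbkb, the catalytic subunit of the canonical pathway, was nearly level (log2 -0.05 ± 0.10 in EAE against naive, 95% interval -0.26 to 0.17). Ikbkg, the scaffold NEMO, was at 328, 303 and 334 in naive, 260.1, 266 and 236 in EAE and 277, 285 and 278 in treated libraries, so that the EAE libraries were below the others while the log2 difference of -0.34 ± 0.12 missed the threshold (adjusted p = 0.0711). Ikbkg passed under 7 alternatives (adjusted p = 0.00971 to 0.0463): upper-quartile scaling, group coefficients alone, the 6 libraries compared, and without naive library 2, EAE library 2, treated library 1 or treated library 3. Chuk, the other catalytic subunit, was at 53.4, 41.4 and 94.2 in naive, 149, 93.5 and 83.9 in EAE and 78.8, 103 and 92.7 in treated libraries, with a log2 difference of 0.82 ± 0.31 in EAE (adjusted p = 0.103) that passed without naive library 3 (adjusted p = 0.0125).

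Rela, which encodes the p65 subunit, was at 2619, 2749 and 1907 in naive, 1881, 2596 and 2973 in EAE and 2825, 2428 and 2801 in treated libraries. Rel was at 1331, 1421 and 1031 in naive, 1136, 1389 and 1691 in EAE and 1532, 1260.3 and 1366 in treated libraries. Nfkb2, the precursor of the p52 subunit, was at 1962, 2893 and 1462 in naive, 1909, 2508 and 2677 in EAE and 2503, 2219 and 2357 in treated libraries. In all 3 genes the groups overlapped, naive library 2 was the highest and naive library 3 the lowest of the naive libraries, and the 95% intervals of the EAE difference on the log2 scale were -0.36 to 0.41 for Rela, -0.20 to 0.50 for Rel and -0.25 to 0.67 for Nfkb2. Relb, the partner of p52, was at 2.01, 7.53 and 3.73 in naive, 14.4, 9.15 and 10.4 in EAE and 3.03, 7.09 and 8.83 in treated libraries. All EAE libraries were above the naive and the treated ones, but these values were too low for the filter and no test was made.

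The inhibitors and feedback genes, a group that also holds the adhesion molecule gene Icam1 and not only genes that limit NF-kB, moved in both directions. In EAE against naive mice 3 of 9 rose and 1 fell, against 9.13% and 5.1% of all genes tested. In treated EAE against naive mice 4 of 9 rose, against 10.2% of all genes tested. Bcl3, an atypical IkB protein that binds p50 and p52 dimers in the nucleus, was at 142, 136 and 196 in naive, 489.7, 361 and 418 in EAE and 384, 379 and 353 in treated libraries. Every immunized library was above the naive range, and Bcl3 rose 2.70-fold in EAE (log2 1.43 ± 0.16, adjusted p = 0.000258) and 2.38-fold in treated EAE (log2 1.25 ± 0.16, adjusted p = 0.000658). Nfkbib, which encodes the cytoplasmic inhibitor IkB-beta, was at 1209, 1272 and 1087 in naive, 1453, 2037 and 1628 in EAE and 1683, 1701 and 1953 in treated libraries. It rose in EAE (log2 0.51 ± 0.13, adjusted p = 0.0225) and in treated EAE (log2 0.58 ± 0.13, adjusted p = 0.0128).

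Nfkbiz, the nuclear IkB-zeta that switches on a second set of inflammatory genes, was at 4336, 5915 and 3661 in naive, 5948, 7258 and 7823 in EAE and 8394, 7864 and 8325 in treated libraries. The 3 groups did not overlap, although naive library 2 came within 1% of the lowest EAE library. Nfkbiz rose in EAE (log2 0.62 ± 0.16, adjusted p = 0.0284) and in treated EAE against naive mice (log2 0.85 ± 0.16, adjusted p = 0.00627). The EAE call was lost without naive library 1, naive library 3, EAE library 2 or EAE library 3 (adjusted p = 0.0729, 0.0562, 0.0724 and 0.0599).

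Tnip1, which binds the A20 protein and helps it to restrain NF-kB, fell slightly in EAE, from 979.7, 1048 and 951 in naive to 805, 794 and 824 in EAE libraries (log2 -0.30 ± 0.09, adjusted p = 0.0468). The treated libraries, at 808, 861 and 864, were also below every naive library without passing (log2 -0.23 ± 0.09, adjusted p = 0.101), although they passed under 5 alternatives, among them without EAE library 2 or EAE library 3 (adjusted p = 0.0169 to 0.0480 over the 5). The EAE call was lost without naive library 1 or naive library 2 (adjusted p = 0.0689 and 0.0526). Tnfaip3, which encodes A20 itself, was at 764, 1498 and 562 in naive, 1019, 1125 and 1401 in EAE and 2845, 1811 and 1379 in treated libraries. Naive library 2 was above both other naive libraries and above every EAE library, and treated library 1 was the highest of all. Tnfaip3 passed in treated EAE against naive mice (log2 1.16 ± 0.33, adjusted p = 0.0354) although the groups overlapped, and the call was lost without naive library 1, naive library 3, treated library 1 or treated library 2 (adjusted p = 0.0923, 0.0716, 0.112 and 0.0582). Its difference between treated EAE and EAE was the largest of any member (0.72, 95% interval 0.00 to 1.43, unadjusted p = 0.049) and was not significant after adjustment (adjusted p = 0.998).

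The remaining 4 genes of the inhibitor and feedback group passed in no comparison. Nfkbia, the gene of IkB-alpha and the classic early target of NF-kB, was at 2053, 2574 and 1691 in naive, 2115, 2414 and 2640.1 in EAE and 3368, 2632 and 2445 in treated libraries, with overlapping groups (log2 0.20 ± 0.16 in EAE and 0.43 ± 0.16 in treated EAE against naive). Nfkbie, the gene of IkB-epsilon, was at 265, 272 and 243 in naive, 202, 175 and 247 in EAE and 248, 225 and 213 in treated libraries. Birc3, a ubiquitin ligase of the TNF receptor complex, had log2 differences of 0.30 ± 0.13 in EAE (adjusted p = 0.158) and 0.36 ± 0.13 in treated EAE (adjusted p = 0.0846). Icam1, an adhesion molecule gene induced by NF-kB, had 0.07 ± 0.17 and 0.14 ± 0.17. Leaving out 1 library brought a call for Nfkbia (treated EAE, without naive library 2, adjusted p = 0.0319), for Nfkbie (EAE, without EAE library 3, adjusted p = 0.0244) and for Birc3 (EAE without EAE library 1, adjusted p = 0.0457, and treated EAE without EAE library 1 or 3).

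Some members shared 1 order of the libraries, at a share not far from that of all genes. In Nfkbia, Nfkbie, Nfkbiz, Nfkb2, Rel, Rela, Tnfaip3, Tnf and Nod2, naive library 2 was the highest and naive library 3 the lowest naive library, and treated library 1 was the highest treated one: 9 of the 47 members (19.1%), against 12.9% of all genes tested. The same order held in all 10 immediate-early genes examined, a set picked after values had been seen, so that their count is a description (Fos, Fosb, Jun, Junb, Egr1, Ier2, Dusp1, Zfp36, Atf3 and Nr4a1), which respond early to many stimuli. Their summed level was 95578, 144219 and 64219 in naive, 86053, 114724 and 145294 in EAE and 166023, 110889 and 107542 in treated libraries. With the mean level of these genes as a further term, which was added after seeing the data, 12 members were called in EAE against naive mice, of which 11 were the same (Tnip1 was lost and Chuk gained), and 14 in treated EAE against naive mice, all 13 and Chuk. Over all 13018 genes tested, 1780 and 1589 were called with it. With that term the log2 difference of Tnfaip3 in treated EAE against naive mice was 0.53 (adjusted p = 0.0405), that of Nfkbiz was 0.58 (adjusted p = 0.00807), and Nfkbia had 0.13.

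**Figure D3:**
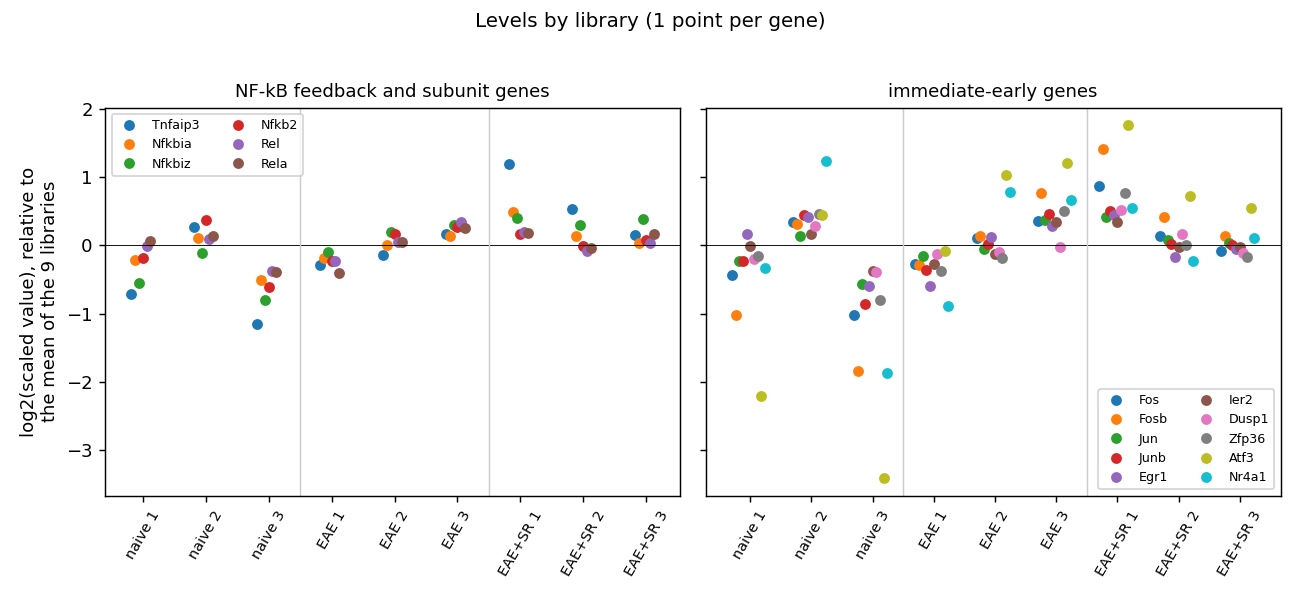
Log2 of the scaled value relative to the mean of the 9 libraries (y axis, 1 point per gene), by library (x axis, 3 each of naive, EAE and treated EAE). The left panel holds Tnfaip3, Nfkbia, Nfkbiz, Nfkb2, Rel and Rela, and the right panel holds the 10 immediate-early genes. Naive library 2 is high and naive library 3 low within the naive group in all 10 immediate-early genes, as in Tnfaip3, Nfkbia, Nfkbiz and Rela.

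Promoters of the members were examined for the kappaB consensus, the sequence that NF-kB dimers bind, on both strands. RefSeq promoters (GRCm38.p6, from 250 bases before to 50 after an annotated start) were at hand for 38 of the 49 members, and 12 of these (31.6%) held at least 1 match, against 2779 of 32851 promoters of this length (8.46%) and 1243 of 11232 genes of the deposited table with a promoter (11.1%). A match is a description of the letters and not a binding site. By role, matches lay in 5 of 8 inhibitors and feedback genes (Nfkbia, Nfkbie, Bcl3, Tnfaip3 and Tnip1), 2 of 3 NF-kB subunits (Nfkb2 and Rel), 3 of 12 adaptors and kinases (Irak1, Traf3 and Map3k7), 1 of 6 cytokine genes (Il1r1), 1 of 7 pattern receptors (Tlr2) and 0 of 2 IKK genes. Of the members that rose in EAE against naive mice 2 of 8 held a match, and of those called in no comparison 8 of 25 (32%). Myd88, Card9 and Nfkbib, which rose, had a promoter and no match. The 4 promoters below belong to the members that passed in at least 1 comparison and hold a match, and they are shown because they join 2 genes that rose in EAE (Il1r1 and Bcl3) to 1 that fell in EAE (Tnip1) and 1 called higher in treated EAE alone (Tnfaip3). The other start of Il1r1 and of Tnfaip3 had no match. Each runs 5′ to 3′ on the gene's own strand from 250 bases before to 20 after the start, with the matches in capitals. They are Il1r1 (chr1:40266336-40266605, plus strand, the downstream of 2 annotated starts), Bcl3 (chr7:19822736-19823005, minus strand), Tnfaip3 (chr10:19015391-19015660, minus strand, the upstream of 2 annotated starts) and Tnip1 (chr11:54962921-54963190, minus strand).
Il1r1: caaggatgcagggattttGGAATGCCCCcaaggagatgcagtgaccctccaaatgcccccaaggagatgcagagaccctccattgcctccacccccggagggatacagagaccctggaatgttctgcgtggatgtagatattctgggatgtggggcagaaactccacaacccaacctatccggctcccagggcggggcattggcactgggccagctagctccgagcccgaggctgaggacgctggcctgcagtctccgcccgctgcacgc
Bcl3: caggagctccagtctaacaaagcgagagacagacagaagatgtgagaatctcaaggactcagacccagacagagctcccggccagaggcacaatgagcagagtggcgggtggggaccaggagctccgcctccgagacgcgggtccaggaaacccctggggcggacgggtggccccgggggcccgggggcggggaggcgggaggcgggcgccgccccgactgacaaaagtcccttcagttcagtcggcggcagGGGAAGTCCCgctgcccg
Tnfaip3: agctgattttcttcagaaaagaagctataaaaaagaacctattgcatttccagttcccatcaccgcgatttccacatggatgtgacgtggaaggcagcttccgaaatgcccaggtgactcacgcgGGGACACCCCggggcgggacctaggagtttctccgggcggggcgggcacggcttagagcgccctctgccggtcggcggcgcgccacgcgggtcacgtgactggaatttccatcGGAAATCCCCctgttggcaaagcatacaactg
Tnip1: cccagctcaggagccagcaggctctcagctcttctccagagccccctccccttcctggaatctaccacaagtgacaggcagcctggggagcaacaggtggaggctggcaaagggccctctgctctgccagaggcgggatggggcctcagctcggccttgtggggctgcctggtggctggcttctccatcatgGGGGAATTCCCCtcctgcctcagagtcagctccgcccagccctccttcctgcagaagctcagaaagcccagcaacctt
The match of Bcl3 begins just downstream of the start (position 3), that of Il1r1 lies far upstream (position -232), Tnfaip3 has 2 matches (positions -125 and -12), and Tnip1 has 3 overlapping ones that begin at positions -58, -57 and -56. Genes with such matches thus included members that rose, that fell and that passed in no comparison, Nfkbia and Rel among the last.

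The 47 members differed between treated EAE and EAE by between -0.54 (Nod2) and 0.72 (Tnfaip3) on the log2 scale, and the lowest adjusted p was 0.998. An unadjusted p under 0.05 was reached by 3 members (6.38%), Tlr7, Ticam1 and Tnfaip3, against 504 of all genes tested (3.87%). The groups did not overlap in 7 members with the treated libraries higher (Tlr7, Tlr9, Ticam1, Ticam2, Irak2, Ikbkg and Nfkbiz), against 8.46% of all genes tested, and in 1 with them lower (Tlr2), against 7.71%. The median half-width of the members' 95% intervals was 0.33 on the log2 scale. The whole interval lay within a 1.5-fold change in 29 of the 47 members and within a 2-fold change in 40, and in the other 7 it reached past 2-fold. Against naive mice, groups did not overlap in 13 members with EAE higher and 7 with EAE lower (21% and 18.4% of all genes tested), and in 16 with treated EAE higher and 7 lower (26.4% and 22.4%).

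The rest of the pathway, a list of 73 further genes of which 62 were tested, had 8 members higher and 6 lower in EAE and 9 higher and 4 lower in treated EAE against naive mice, with medians of 0.01 and 0.05. In EAE 12.9% of the list was higher and 9.68% lower, against 9.13% and 5.1% of all genes tested, and in treated EAE 14.5% and 6.45%, against 10.2% and 4.61%. The shares of higher and of lower calls were thus each somewhat above those of all genes, the lower ones resting on 6 and 4 genes. These differences in share were not tested. Unc93b1, the chaperone that carries TLR7, TLR9 and other nucleic acid receptors to endosomes, was at 2889.8, 2859.8 and 2834 in naive, 4268, 4809 and 4973 in EAE and 5706, 5487 and 5857 in treated libraries. The 3 groups did not overlap (log2 0.71 ± 0.09 in EAE, adjusted p = 0.000685, and 0.99 ± 0.09 in treated EAE, adjusted p = 7.97e-05), as in Tlr9. Tlr8, at low values, had the largest rise of the list in EAE. It was at 2.01, 4.71 and 1.87 in naive, 14.4, 16.3 and 20.7 in EAE and 2.02, 6.07 and 14.3 in treated libraries. The EAE call (adjusted p = 0.0369) was lost under 7 of 19 alternatives. Treated EAE was not called against naive (adjusted p = 0.366). All treated libraries were below all EAE ones, without passing (log2 -1.39 ± 0.65, adjusted p = 0.998). Hsp90b1, the chaperone gp96 needed to fold most Toll-like receptors, rose by 0.75 ± 0.14 in EAE and 1.03 ± 0.14 in treated EAE on the log2 scale (adjusted p = 0.00608 and 0.00107).

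Lbp, the lipopolysaccharide-binding protein that loads CD14, was at 478, 508 and 582 in naive, 1285, 1199 and 1168 in EAE and 1019, 1095 and 1133 in treated libraries. Each immunized library was above every naive one (log2 1.23 ± 0.10, adjusted p = 2.32e-05, in EAE and 1.06 ± 0.10 in treated EAE). Ly86, which encodes MD-1, rose by 1.83 ± 0.30 and 2.20 ± 0.30, whereas the receptor that MD-1 binds, Cd180, fell (log2 -0.53 ± 0.12 in EAE, adjusted p = 0.0124, and -0.41 ± 0.12 in treated EAE, adjusted p = 0.0374). The treated call of Cd180 was lost without either of naive libraries 1 and 3 and without any 1 treated library (adjusted p = 0.0519 to 0.0879). Map3k8, the kinase TPL2 that links IKK to the ERK pathway, was at 151, 138 and 162 in naive, 265, 243 and 319.9 in EAE and 234, 243 and 272 in treated libraries and rose in both comparisons (0.87 ± 0.15 and 0.73 ± 0.15). Among those that fell were Tnip3, a relative of Tnip1, at 329, 319 and 319 in naive, 147, 112 and 154 in EAE and 157, 165 and 149 in treated libraries (-1.24 ± 0.15 and -1.04 ± 0.15), and Sigirr, an inhibitory receptor of the IL-1 family, at 402, 403 and 389.9 in naive, 295, 281 and 282 in EAE and 295, 272 and 249 in treated libraries (-0.48 ± 0.11 and -0.55 ± 0.11). Irf5, a transcription factor activated through MYD88, fell in EAE (-0.58 ± 0.12, adjusted p = 0.00748) and missed the threshold in treated EAE (-0.33 ± 0.12, adjusted p = 0.0774). Tnfrsf13c also fell in EAE (-0.82 ± 0.15, adjusted p = 0.00505) without passing in treated EAE (-0.38 ± 0.15, adjusted p = 0.108).

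Genes of the C-type lectin and inflammasome sensors, through which mycobacterial products are also recognised, form a list of 22. Of these 21 were tested, and 10 rose and none fell in EAE, 11 rose and none fell in treated EAE against naive mice, with medians of 0.34 and 0.40. Higher calls made up 47.6% and 52.4% of the list, against 9.13% and 10.2% of all genes tested. The list was chosen with earlier results of these data known, so that these shares are a description. Clec7a, the beta-glucan receptor Dectin-1, was at 33.2, 23.5 and 26.1 in naive, 70.9, 148 and 126 in EAE and 100, 91.1 and 149 in treated libraries (log2 1.98 ± 0.30 in EAE, adjusted p = 0.00173). Clec4e, the Mincle receptor for the mycobacterial cord factor, was at 106, 97 and 114 in naive, 181, 179 and 187 in EAE and 175, 163 and 167 in treated libraries (0.79 ± 0.14, adjusted p = 0.00431). Clec4d, which pairs with Mincle, was at 21.1, 19.8 and 21.5 in naive, 56.5, 83.3 and 60 in EAE and 67.7, 56.7 and 65.1 in treated libraries (1.62 ± 0.24, adjusted p = 0.00161). In these 3 receptors every immunized library was above every naive one. Fcer1g, the signalling chain of Mincle, rose by 0.34 ± 0.10 in EAE (adjusted p = 0.0355, 0.0689 without naive library 1), and Syk, the kinase between these receptors and CARD9, did not pass (log2 -0.16 ± 0.09, adjusted p = 0.265).

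**Figure D4:**
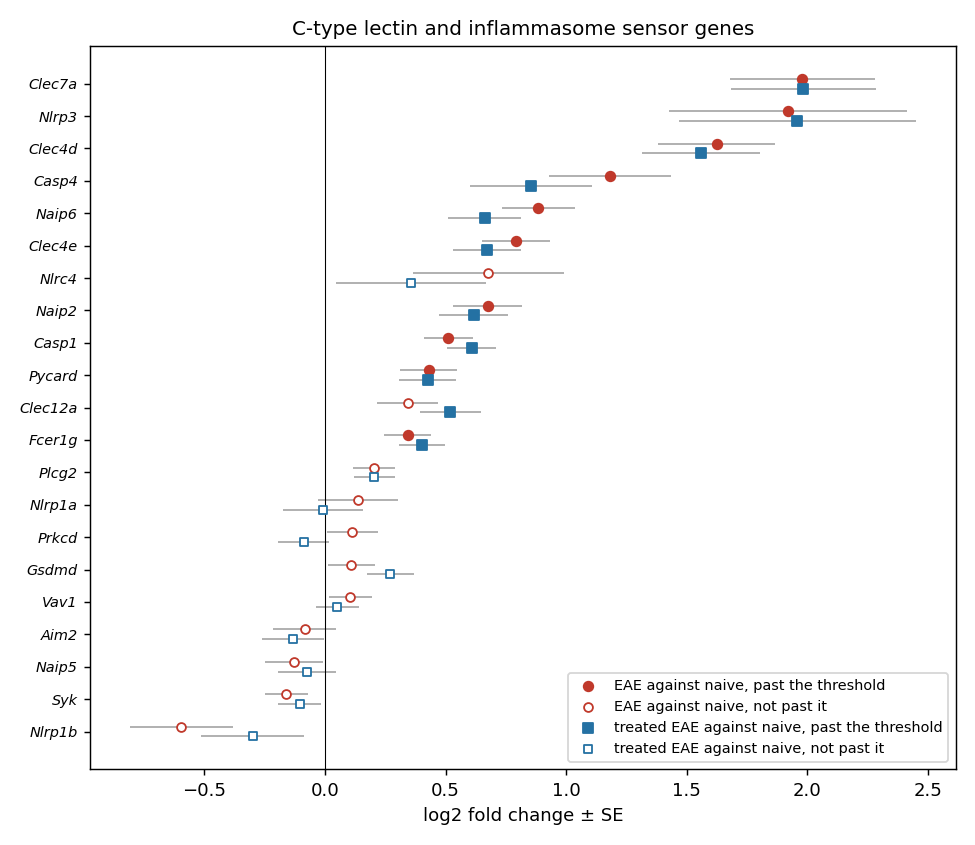
Log2 fold change with its standard error (x axis) for the 21 tested C-type lectin and inflammasome sensor genes (y axis), in EAE against naive (circles) and treated EAE against naive (squares), which share the naive libraries. Filled symbols passed an adjusted p of 0.05, 10 in EAE and 11 in treated EAE, all of them above 0.

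Among the inflammasome genes Casp1, whose product matures IL-1-beta, was at 344, 357 and 345 in naive, 479, 479.8 and 533 in EAE and 553, 519 and 523 in treated libraries and rose in both comparisons (log2 0.51 ± 0.10 and 0.61 ± 0.10, adjusted p = 0.00689 and 0.00283). Nlrp3 was at 9.06, 21.7 and 5.60 in naive, 32.3, 44.7 and 51.8 in EAE and 77.8, 36.4 and 28.7 in treated libraries (log2 1.92 ± 0.49 in EAE, adjusted p = 0.0239), with naive library 2 again the highest naive one, and its EAE call was lost without naive library 1 or EAE library 2 (adjusted p = 0.0593 and 0.0585). Il1b, the substrate of this machinery, passed in no comparison.

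Of 36 NF-kB target genes listed, 25 were tested, and 4 rose and 2 fell in EAE and 7 rose and 1 fell in treated EAE against naive mice. Higher and lower calls were 16% and 8% of the list in EAE (9.13% and 5.1% of all genes tested) and 28% and 4% in treated EAE (10.2% and 4.61%). Ccl2, a chemokine for monocytes, was at 1.01, 3.77 and 0.933 in naive, 24.2, 36.6 and 35.2 in EAE and 54.6, 27.3 and 23.2 in treated libraries, with all immunized libraries above the naive ones (log2 3.64 ± 0.49, adjusted p = 0.000884, in EAE and 3.68 ± 0.49 in treated EAE). Ier3, an early response gene, was at 360.5, 507 and 339 in naive, 619.8, 743 and 604 in EAE and 733, 639 and 597 in treated libraries (0.72 ± 0.16 and 0.72 ± 0.16). The 2 that fell in EAE were Sele and Il12a. Sele, the gene of the endothelial adhesion molecule E-selectin, had the largest difference of the list in EAE. It was at 24.2, 11.3 and 61.6 in naive, 3.59, 1.02 and 0 in EAE and 0, 3.04 and 2.21 in treated libraries (log2 -3.70 ± 0.87, adjusted p = 0.0160, and -3.52 ± 0.87, adjusted p = 0.0200). Both calls were lost with a pseudocount of 0.1 and with limma without a trend. Sele is also on a list of stromal and endothelial markers. Of these 6 were tested and 3 were called lower in EAE, while their summed level overlapped between the groups. Il12a, a subunit of interleukin 12, was at 1210.3, 1397 and 1329 in naive and 1120.3, 865 and 1009 in EAE libraries (log2 -0.40 ± 0.11, adjusted p = 0.0376). Cxcl10, an interferon-inducible chemokine, was at 277, 217 and 147 in naive, 209, 449 and 745 in EAE and 616, 477 and 819 in treated libraries. The EAE libraries overlapped the naive ones, and Cxcl10 passed in treated EAE (1.59 ± 0.39, adjusted p = 0.0192) and not in EAE (1.0 ± 0.39, adjusted p = 0.112). Without EAE library 1 the second of these passed (adjusted p = 0.00689), and the first was lost without treated library 1 or treated library 3 (adjusted p = 0.0505 and 0.0596).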

How the data were processed

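Expression was measured in LSK cells of 9 mice, 3 in each of 3 groups set by the labels. The table that the authors deposited gives a whole-number score for each of 14940 gene symbols, adjusted in a way the labels do not describe. These numbers obey 2 linear relations across the libraries: among 4577 genes averaging 500 or more, the natural log of (value + 1) had 7.65e-05% and 6.77e-05% of its variance on principal components 7 and 8 and 2.75% or more on each earlier one. Independent read counts would not do so. DESeq2 is listed, with neither version nor role, per the submitters' processing notes. Not given in the sources used here are the aligner, the counting tool, the strand setting and the build. The depth is unknown.

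Values were divided by median-of-ratios factors (0.907 to 1.11), and genes with at least 10 in 3 libraries were kept (13018). Differences between groups in log2(value + 1) were tested by limma-trend (2-sided; limma 3.58.1, R 4.3.3) over all 9 libraries, with group coefficients and the 2 missing directions as covariates (4 residual degrees of freedom, prior 7.52), Benjamini-Hochberg adjustment over all genes and a threshold of 0.05. A fold change is on the log2(value + 1) scale, which understates changes of low genes. Promoters came from RefSeq (GRCm38.p6) and were searched in Python 3.11.15. Every member could be named, and up to 12 called genes of each further list. The members, lists and marker lists were chosen with earlier results of these data known. Alternatives covered the pseudocount, filter, scaling, covariates, prior variance and single libraries, and the immediate-early term was added after seeing the data.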

Additional observations from a re-analysis of the deposited data

How the results depend on the processing

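The depth is unknown, so counting precision is unknown too, and 3 mice a group limit each comparison. In EAE against naive mice the count of 12 members was 10 to 15 under the alternatives for pseudocount, filter, scaling, covariates and libraries in the fit, 2 with the chemosensory share as a covariate and 6 with limma without a trend. Leaving out 1 library gave 10 to 14. For treated EAE against naive mice the count of 13 was 9 to 19, 1 with the chemosensory share and 6 without a trend, and leaving out 1 library gave 9 to 16. Calls over all genes moved as well. The 6 libraries compared called 15 members with 2668 of 12839 genes in EAE, and 19 with 4442 of 12616 in treated EAE. Group coefficients alone called 15 and 18 members with 3485 and 3920 of 13018 genes. Leaving out 1 library gave 1239 to 2624 calls over all genes in EAE and 1234 to 3327 in treated EAE. Between treated EAE and EAE the member count was 0 under each alternative and each left-out library. The cause of these moves was not tested.

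All reversals came with the chemosensory share as a covariate. In EAE against naive mice the log2 difference became -1.67 for Tnfaip3, -0.74 for Nlrp3 and 0.035 for Sele. The treated comparison with naive mice gave -0.15 for Nfkbiz, -2.37 for Tnfaip3, 0.32 for Tbkbp1, -0.21 for Clec12a, -2.48 for Nlrp3, -2.47 for Cxcl2, 2.71 for Sele and -0.21 for Ier3. Of the 12 members called in EAE, 10 had a larger difference of the same sign with this term, and of the 13 in treated EAE also 10, with larger standard errors. Without scaling Il1r1 and Tnip1 lost their EAE calls (adjusted p = 0.0780 and 0.122) and Tlr7, Irak4, Tnfrsf1a and Tnfaip3 their treated ones, and with upper-quartile scaling Irak4 and Tnfrsf1a lost theirs.

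Over all genes tested, the split of higher and lower calls in EAE against naive mice was 1189 and 664, but 606 and 453 without scaling and 807 and 910 with upper-quartile scaling. The same split for treated EAE was 1332 and 600, but 489 and 584 and then 835 and 954, and without scaling the median of all genes shifted to -0.11. Group coefficients alone called 3485 and 3920 genes in these comparisons, the 6 libraries compared 2668 (EAE) and 4442 (treated), no trend 778 and 864, and the chemosensory share 112 and 18, against 1853 and 1932. No paired analysis was possible because the labels pair no mice: replicate numbers only follow accession order, and the titles share fewer than 2 numbers between groups.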
